A study of Cucumis sativus with 4 samples.

Results

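Cucumber leaves and roots were compared on full nitrogen, gene by gene, to describe what sets the transcripts of the photosynthetic organ apart from those of the organ that takes up minerals. Plants grew in sand and were 28 days old, and these controls received a complete solution with 5 mM nitrate. The comparison rests on 1 root and 1 leaf library, and a second pair of libraries came from plants given 1 mM nitrate. How many plants each library holds, and whether root and leaf came from the same plants, is not stated in the labels. The low nitrogen solution also held more sulfate and chloride. Values are RPKM, which divides the reads of a gene by its length and by the library's depth, so levels of different genes are compared per length. A gene was compared when the mean of the root and leaf values was at least 5 RPKM, which left 10338 of the 18665 listed genes. The log2 ratio is that of leaf RPKM + 1 over root RPKM + 1: positive values are higher in leaf, negative values higher in root, and a gene is called higher in an organ when the ratio reaches 1 in either direction. Since each organ has 1 library, no difference could be set against the spread between replicates, and none was tested.

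A leaf captures light in its thylakoid membranes, fixes carbon dioxide in the chloroplast stroma and exports sugar, while a root imports that sugar, takes up water and ions, and filters them through the endodermis on the way to the xylem. Nitrate enters through the root, and it can be reduced there or carried to the leaf, where the chloroplast supplies the electrons. Many of the genes for these tasks belong to families in which plants keep separate copies for separate organs. Symbols and homologue IDs below are those of the deposited table and name the closest Arabidopsis gene; roles are those known in Arabidopsis or plants in general. Copies of a gene are counted among the genes compared, since some have further copies below the filter, and the scaffold is given where needed to tell them apart. Close copies may share reads.

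Of the 10338 genes, 1948 (18.8%) were higher in leaf and 4321 (41.8%) were higher in root, 60.6% in all, and 4069 were in neither class. The median log2 ratio over all genes was -0.68, so a typical gene stood lower in leaf than in root, and list medians below are to be read against that value. The leaf library was the more concentrated on few genes: the 100 highest genes held 51.8% of the RPKM sum in leaf and 28.4% in root. With ratios taken relative to the median gene, 2881 genes (27.9%) were higher in leaf and 2748 (26.6%) higher in root, and scaled by the median ratio the counts were 2691 and 2932. Scaled to equal upper quartiles of genes above 0, the counts were 2297 in leaf and 3501 in root. Scaled to equal sums without the 20 most abundant genes, they were 2130 and 3849. The size of the root excess therefore depends on the scaling. The excess also shrank with the size of the difference. A log2 ratio of 3 was passed by 764 genes towards leaf and 1158 towards root, and a ratio of 5 by 270 and 275. In the root library 151 of the genes were listed at 0, and in the leaf library 367. The depth estimated from the values was 4.23 M reads for root and 2.93 M for leaf.

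**Figure D1:**
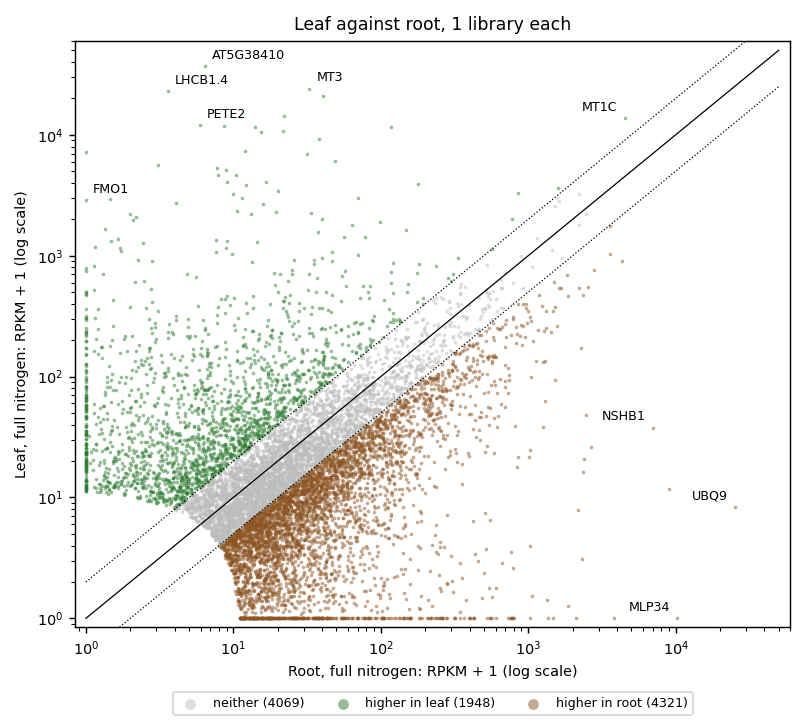
RPKM + 1 of each gene compared in root (horizontal axis) and leaf (vertical axis) on full nitrogen, both on log scales, 1 library each; the solid line marks equal values, the dotted lines 2-fold of RPKM + 1. The 1948 green points are higher in leaf and the 4321 brown points higher in root, and points lying on an axis are listed at 0 in the other organ.

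At the edge of the filter the counts were similar on both sides. Means just inside it (5 to 5.5 RPKM) belonged to 335 genes, 42 higher in leaf and 145 higher in root. Means just outside it (4.5 to 5 RPKM) belonged to 329 genes, 47 higher in leaf and 132 higher in root. Genes with no Arabidopsis homologue in the table were higher in root in 215 of 382 cases and higher in leaf in 64.

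The organ labels matched the defining markers. Mesophyll markers (antenna proteins, photosystem subunits, Rubisco activase, phosphoribulokinase) summed to 26536 RPKM in leaf and 63.1 RPKM in root over 8 genes. Endodermis markers summed to 267 RPKM in root and 0.53 RPKM in leaf over 11 genes, 10 of which were listed at 0 in leaf. All 4 root hair marker genes were listed at 0 in leaf and summed to 45.0 RPKM in root. Leaf epidermis markers summed to 1.82 RPKM in root and 60.7 RPKM in leaf, and root cap and root tip markers to 35.8 and 0.2 RPKM. Other sets were less one-sided. Guard cell markers summed to 19.7 RPKM in root and 126 RPKM in leaf, and xylem markers to 177 and 15.3 RPKM. Phloem markers were present in both organs, at 1207 RPKM in root and 756 RPKM in leaf. In whole organs, fewer cells of a type and less RNA per cell cannot be told apart.

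The abundance peaks of the organs were different genes. In leaf the highest gene was the homologue of AT5G38410, which encodes the small subunit of Rubisco, at 36769 RPKM against 5.40 in root. Next came the metallothionein MT3 (AT3G15353), a small metal-binding protein, at 24059 RPKM in leaf and 31.8 in root. LHCB1.4 (AT2G34430, scaffold00542), LHCB1.3 (AT1G29930) and LHCB2.2 (AT2G05070), light-harvesting proteins of photosystem II, followed at 22999.6, 20926 and 14263 RPKM. In root these 3 genes were at 2.60, 39.3 and 21.0 RPKM.

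The highest root gene carried the symbol UBQ9 (AT5G37640), a polyubiquitin, with 25232 RPKM in root and 7.41 RPKM in leaf. MLP34 (AT1G70850, scaffold00164), of the major latex protein family of small ligand-binding proteins, had 10282 RPKM in root and was listed at 0 in leaf. A homologue of AT2G32060, which encodes a protein of the small cytosolic ribosomal subunit, had 9077 RPKM in root and 10.8 RPKM in leaf. NSHB1 (AT2G16060), a nonsymbiotic haemoglobin that binds oxygen and scavenges nitric oxide, stood at 7011 RPKM in root and 36.8 RPKM in leaf, 191-fold higher in root (95% counting interval 157 to 234). MT1C (AT1G07610), another metallothionein, was the fifth most abundant root gene at 4497 RPKM, yet leaf held more of it, 13712 RPKM.

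At the leaf end of the ratio, 9 of the 15 highest genes with a symbol encode antenna proteins, a photosystem II assembly factor (PSB27), plastocyanin or enzymes of the Calvin cycle. LHCB1.4, in the more abundant of its 2 copies on scaffold00542, had the highest log2 ratio of them, 12.64, and an 8846-fold difference with a counting interval of 4945 to 17727. FBA1 (AT2G21330), the plastid aldolase of the Calvin cycle, was at 0.45 RPKM in root, which may be as few as 1 read, and 2968 RPKM in leaf. PETE2 (AT1G20340), the electron carrier plastocyanin, was at 4.93 and 11969 RPKM. LHCA4 (AT3G47470, scaffold01357), an antenna protein of photosystem I, was at 7.63 and 11823 RPKM. These genes are among the most abundant in leaf and close to 0 in root. PGR5 (AT2G05620), of cyclic electron flow, was listed at 0 in root and 749 RPKM in leaf.

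Other genes at the leaf end have roles outside light capture. FMO1 (AT1G19250, scaffold00485), homologous to a flavin monooxygenase of systemic immunity in Arabidopsis, was listed at 0 in root and 2872 RPKM in leaf, at least 793-fold higher against a floor of 3 root reads. TZ (AT5G54770), which makes the thiazole ring of thiamine, was at 2.08 RPKM in root and 5601 RPKM in leaf. PRP4 (AT4G38770), a proline-rich wall protein, was, in the more abundant of its 2 copies, at 0.34 and 1648 RPKM. ACP4 (AT4G25050, scaffold01141), an acyl carrier protein of plastid fatty acid synthesis, was at 0.48 and 1331 RPKM. CSP41B (AT1G09340), an RNA-binding protein of the chloroplast, was at 1.17 and 2079.9 RPKM. CCL (AT3G26740) was listed at 0 in root and 785 RPKM in leaf.

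The root end opened with MLP34. After it, UBQ9 and AGO3 (AT1G31290), an Argonaute homologue whose deposited length is 25799 bases, came MLP423 (AT1G24020, scaffold00714) with 1023 RPKM in root and 0 in leaf. ELP (AT1G12090), an extensin-like protein, had 5 copies compared and all 5 were higher in root; the 2 highest, on scaffold02951, had 761 and 601 RPKM in root and were at 0 in leaf. In their most abundant copies, the germin-like GLP9 (AT4G14630) was at 526 and 0 RPKM, and the BURP-domain gene USPL1 (AT1G49320) at 395 and 0 RPKM. XTR8 (AT3G44990), which cuts and rejoins wall xyloglucan, was at 564 RPKM in root and 0.51 RPKM in leaf in a first copy and at 13.8 and 2.49 RPKM in a second. LOX2 (AT3G45140, scaffold01124), of the lipoxygenases that start jasmonate synthesis, was at 345 RPKM in root and 0.13 RPKM in leaf. That leaf value may rest on as few as 1 read.

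Genes with no symbol reached the same extremes. A gene on scaffold01028 with no homologue had the highest log2 ratio of all, 12.82, listed at 0 in root and at 7238 RPKM in leaf. Its counterpart in root, on scaffold01658, had 3844 RPKM in root and 0 in leaf. The homologue of AT5G28010 on scaffold03703, of the major latex protein family, had 2113 RPKM in root and 0 in leaf. A homologue of AT2G38870, of the potato inhibitor I family of protease inhibitors, had 1371 and 0 RPKM.

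The thylakoid genes formed the most uniform leaf group. Over the lists of photosystem I subunits, photosystem II subunits, electron transport with ATP synthase, and antenna proteins, all 51 genes compared were higher in leaf. They made up 25.8% of the leaf RPKM sum and 0.098% of the root sum. The antenna list had a median log2 ratio of 8.57 over 18 genes, photosystem I 6.95 over 9, photosystem II 6.63 over 13 and electron transport 6.50 over 11. All 4 medians stayed above 5 under each of the scalings, filters and pseudocounts tried. Within them, PSAF (AT1G31330), a photosystem I subunit that docks plastocyanin, had the highest root value of its list, 76.9 RPKM against 1417 in leaf. PSBX (AT2G06520, scaffold01079), a small photosystem II subunit, was at 116 RPKM in root and 11564 in leaf. The root level was not a fixed share of the leaf level. It was 0.0113% for LHCB1.4 (scaffold00542), 0.138% for LHCB5 (AT4G10340), 5.43% for PSAF and 24.5% for the homologue of AT1G76570, LHCB7 in Arabidopsis.

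**Figure D2:**
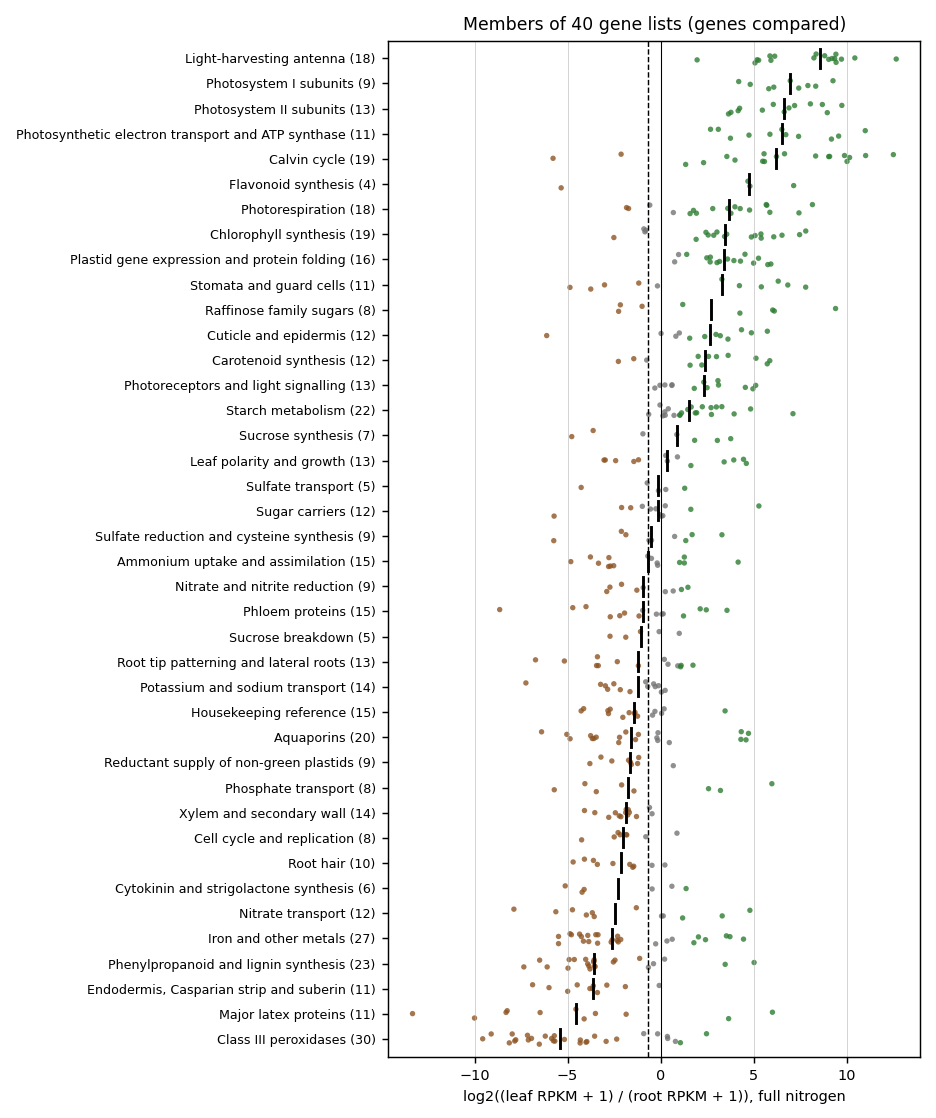
Log2 ratio of leaf over root (horizontal axis) of each gene compared in 40 lists, ordered by list median (black bars); green points are higher in leaf, brown points higher in root and grey points in neither class, and the dashed line marks the median of all 10338 genes, -0.68. Thylakoid lists lie wholly to the right, while peroxidases, latex proteins and endodermis genes lie mostly to the left.

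Carbon fixation was on the leaf side too, with exceptions. In the Calvin cycle list 17 of 19 genes were higher in leaf (median 6.21). Rubisco activase RCA (AT2G39730, scaffold01153), which frees Rubisco of bound sugar phosphates, was at 0.98 RPKM in root and 2231 RPKM in leaf. Phosphoribulokinase PRK (AT1G32060, scaffold01110), which makes the acceptor of carbon dioxide, was at 0.15 and 1177 RPKM, and SBPASE (AT3G55800), of acceptor regeneration, at 1.1 and 1957 RPKM. The exceptions were a transketolase, the homologue of AT2G45290 on scaffold03611, at 223 RPKM in root and 3.07 RPKM in leaf, and an aldolase, the homologue of AT2G01140, at 72.5 and 15.8 RPKM. Transketolase also serves the pentose phosphate pathway, which supplies non-green plastids. A second homologue of AT2G45290, on scaffold02229, showed the mirror image, 3.85 RPKM in root and 214 RPKM in leaf.

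Photorespiration, which recycles the product of Rubisco's reaction with oxygen, had 14 of 18 genes higher in leaf and a median of 3.68. STM (AT4G37930), the mitochondrial serine hydroxymethyltransferase, was at 1.14 RPKM in root and 604 RPKM in leaf. GGT2 (AT1G70580), a peroxisomal glutamate:glyoxylate aminotransferase, was at 0 and 170.2 RPKM in a first copy and at 1.23 and 14.4 RPKM in a second. The 2 genes of the list that were higher in root were the carrier BOU (AT5G46800) on scaffold02995 (11.8 RPKM in root, 2.57 in leaf) and the homologue of AT2G35120 (119 and 35.3 RPKM), an H protein of glycine decarboxylase. The other H protein, GDCH (AT2G35370), was at 1.38 RPKM in root and 137 RPKM in leaf.

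Most genes of pigment synthesis were higher in leaf, and each pathway had genes higher in root. In chlorophyll synthesis 15 of 19 genes were higher in leaf (median 3.43). PORB (AT4G27440), the light-dependent protochlorophyllide reductase, was at 30.4 RPKM in root and 6926 RPKM in leaf, and GUN5 (AT5G13630), a subunit of magnesium chelatase, at 1.76 and 250.4 RPKM. G4 (AT3G51820), chlorophyll synthase, went the other way, with 54.0 RPKM in root and 8.61 in leaf (6.28-fold, counting interval 3.95 to 10.5). Among 12 carotenoid genes 9 were higher in leaf. PSY, phytoene synthase, the entry step, was higher in leaf in the copy on scaffold01233, at 1.26 RPKM in root and 77.2 RPKM in leaf, and in neither class in the copy on scaffold01209, at 8.26 and 4.49 RPKM. The hydroxylases LUT5 (AT1G31800; 18.6 and 3.04 RPKM) and chy1 (AT4G25700; 31.2 and 10.8 RPKM) were higher in root, the latter not when taken relative to the median gene.

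The machinery that builds chloroplasts was higher in leaf in 14 of 16 genes (median 3.37). GPRI1 (AT2G20570), a GOLDEN2-like regulator of chloroplast genes, was listed at 0 in root and 22 RPKM in leaf. The sigma factor SOLDAT8 (AT2G36990), which directs the plastid polymerase, was at 1.35 and 125 RPKM, and the plastid ribosomal protein RPS1 (AT5G30510) at 3.96 and 298 RPKM. Light perception gave a mixed picture, with 8 of 13 genes higher in leaf (median 2.31). That median was 1.13 with no filter on low values and 0.41 at a mean of 20 RPKM or more. The blue light receptors of phototropism, RPT1 (AT3G45780; 0.05 RPKM in root, 31.4 in leaf) and PHOT2 (AT5G58140; 0.30 and 43.5 RPKM), stood far apart between the organs. The phytochrome PHYA (AT1G09570; 25.5 and 24.7 RPKM) and the UV-B receptor UVR8 (AT5G63860; 27.8 and 22.1 RPKM) did not pass the threshold.

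Starch metabolism had 15 of 22 genes higher in leaf, none higher in root and a median of 1.54. ADP-glucose pyrophosphorylase, the committed step, differed by subunit. Its large subunit APL1 (AT5G19220) was at 0.28 RPKM in root and 174 RPKM in leaf, APL2 (AT1G27680) at 7.25 and 15.9 RPKM, and APL3 (AT4G39210) at 7.92 and 8.66 RPKM. The small subunit APS1 (AT5G48300) was at 21.6 and 346 RPKM. The homologue of AT1G32900, granule-bound starch synthase, was at 24.2 and 711 RPKM.

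Sugar handling was divided between copies. For sucrose synthesis 3 of 7 genes were higher in leaf and 2 higher in root. TPT (AT5G46110), the triose phosphate exporter of the plastid, was at 4.99 RPKM in root and 79.9 RPKM in leaf on scaffold00542, and at 31.4 and 0.18 RPKM on scaffold02653. Of 5 genes that break sucrose down, 3 were higher in root and none in leaf, led by the vacuolar invertase VAC-INV (AT1G12240; 15.9 RPKM in root, 1.56 in leaf). Among sugar carriers, MTN3 (AT5G23660), a SWEET sugar exporter, was at 66.8 RPKM in root and 0.28 RPKM in leaf, and a homologue of AT4G15920 on scaffold01251, of the same family, was at 0.20 and 45.2 RPKM. Cucurbits export raffinose family sugars in the phloem. GolS2 (AT1G56600), galactinol synthase, the first step, was at 3.10 RPKM in root and 2739.7 RPKM in leaf, 884-fold higher (526 to 1617). The stachyose synthase STS (AT4G01970) was at 0.28 and 23.3 RPKM, and the gene with the symbol SIP1 and the homologue AT5G40390, a raffinose synthase, at 2.01 and 205 RPKM. The raffinose list had 5 of 8 genes higher in leaf, and the 3 higher in root were another SIP1 (AT1G55740; 58.0 and 11.3 RPKM), DIN10 (AT5G20250; 222 and 48.5 RPKM) and SIP2 (AT3G57520; 48.9 and 23.9 RPKM), the last not relative to the median gene.

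In the cuticle list, which builds the leaf surface, 8 of 12 genes were higher in leaf (median 2.66, or 0.81 at a mean of 20 RPKM or more). PEL3 (AT5G23940), of cutin formation, was at 0.87 RPKM in root and 97.8 RPKM in leaf. POP1 (AT1G68530), a fatty acid elongase of wax synthesis, was at 0.26 and 35.8 RPKM. G7 (AT4G33790), a fatty acyl reductase, had 2 copies compared: that on scaffold01365 was at 0 in root and 19.2 RPKM in leaf, that on scaffold03904 at 68.8 and 0 RPKM.

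Of 11 stomatal and guard cell genes 6 were higher in leaf and 4 in root. EPF1 (AT2G20875) and STOMAGEN (AT4G12970), secreted peptides that act on stomatal formation, were listed at 0 in root and at 78.1 and 112 RPKM in leaf. MYB60 (AT1G08810), a guard cell regulator in Arabidopsis, was at 0.38 RPKM in root and 24.8 in leaf on scaffold00313, and at 0.47 and 61.0 RPKM on scaffold03356. The carbonic anhydrase SABP3 (AT3G01500) was at 9.67 and 2345 RPKM. SRK2E (AT4G33950), the kinase that closes stomata in response to abscisic acid, was higher in root in the 2 copies compared, at 135 and 3.64 RPKM on scaffold01174 and at 27.01 and 1.07 RPKM on scaffold01658. MUTE (AT3G06120), a stomatal lineage factor in Arabidopsis, was at 11.97 RPKM in root and 0.60 RPKM in leaf.

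Leaf polarity genes lay on both sides. The YABBY factors compared were higher in leaf, with YAB5 (AT2G26580) at 0.48 RPKM in root and 34.7 in leaf, YAB2 (AT1G08465) at 0.09 and 22.7 RPKM, and YAB3 (AT4G00180) at 0.22 and 17.5 RPKM. The HD-ZIP III factors compared, which pattern vascular tissue too, were higher in root. REV (AT5G60690) was at 49.2 and 8.36 RPKM, and PHB-1D (AT2G34710) at 38.3 and 3.98 RPKM on scaffold00542 and at 26.1 and 2.28 RPKM on scaffold01154. Over the list 5 of 13 genes were higher in each organ, or 7 in leaf and 3 in root relative to the median gene.

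The endodermis and root hair lists lay on the root side. In the endodermis list, which covers the Casparian strip and suberin barriers, 10 of 11 genes were higher in root and none in leaf (median -3.66, or -1.85 with no filter). CASP family homologues, which place the Casparian strip, were at 117 RPKM in root for AT5G15290, 63.0 for AT3G11550 and 11.3 for AT5G06200, and all were at 0 in leaf. Their regulator MYB36 (AT5G57620) had 3 copies compared, at 30.9, 21.4 and 12.99 RPKM in root and at 0 in leaf. Among 10 root hair genes 8 were higher in root, or 5 relative to the median gene, led by the expansin EXPA7 (AT1G12560; 25.1 and 0 RPKM) and the hair initiation factor RHD6 (AT1G66470; 16.1 and 0 RPKM). The root hair median was -2.12. At a mean of 20 RPKM or more it was -0.72, near that of all genes, -0.69. SMB (AT1G79580), a root cap factor, was at 35.1 and 0 RPKM.

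In the root tip list 7 of 13 genes were higher in root and 3 in leaf, or 6 and 5 relative to the median gene, and its auxin carriers took both directions. PIN3 (AT1G70940) was higher in leaf, at 4.26 RPKM in root and 16.4 RPKM in leaf. The influx carrier WAV5 (AT2G38120) was at 14.0 and 0.47 RPKM on scaffold03639, at 14.9 and 17.2 RPKM on scaffold01225 and at 5.38 and 12.3 RPKM on scaffold00696.

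Most xylem genes compared were higher in root, while phloem genes were divided. For xylem and secondary wall, 12 of 14 genes were higher in root and none in leaf (median -1.87), or 11 relative to the median gene. With no filter on low values the xylem median was -0.69, near that of all genes, -0.51. XCP1 (AT4G35350), a protease of xylem cell death, was at 141 RPKM in root and 7.33 RPKM in leaf. LEW2 (AT4G18780), a cellulose synthase of secondary walls, was at 23.7 and 2.56 RPKM. The phloem list had 7 of 15 genes higher in root, a share near that of all genes, and 4 higher in leaf (median -0.97). The phloem lectin PP2-A1 (AT4G19840) took all directions. Of the copies on scaffold00046, 1 had 400.1 RPKM in root and 0 in leaf and another 161 and 34.2, that on scaffold03537 at 41.8 and 1.65, that on scaffold01154 at 48.0 and 266, and that on scaffold03443 at 42.9 and 189.

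Lignin synthesis and its oxidases were among the strongest root groups. In the phenylpropanoid list 18 of 23 genes were higher in root and 2 in leaf (median -3.58). REF3 (AT2G30490, scaffold00322), the cinnamate hydroxylase, was at 353 RPKM in root and 1.17 RPKM in leaf, 302-fold higher (139 to 824). CAD5 (AT4G34230, scaffold02135), which makes the lignin alcohols, was at 509.8 and 6.45 RPKM, and PAL1 (AT2G37040), the entry step, at 89.7 and 0 RPKM in its most root-biased copy on scaffold01001. The genes higher in leaf were FAH1 (AT4G36220; 1.1 and 22.2 RPKM), of sinapate synthesis, and an OMT1 copy (AT5G54160) on scaffold00540 (0.39 and 43.8 RPKM). In the flavonoid list only 4 genes were compared, and 3 of them were higher in leaf. Another 11 fell below the filter, 5 with the greater value in leaf and 6 in root. The chalcone synthase TT4 (AT5G13930) was at 1.00 RPKM in root and 54.2 RPKM in leaf. The chalcone isomerase TT5 (AT3G55120) was at 0.51 and 37.7 RPKM, and the homologue of AT5G05270 at 0.26 and 176 RPKM. The flavonoid hydroxylase TT7 (AT5G07990) was at 39.7 and 0 RPKM.

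Class III peroxidases, secreted enzymes that oxidise lignin alcohols, had the lowest median of any list, -5.43, with 23 of 30 genes higher in root and 12 listed at 0 in leaf. With no filter on low values the median was -1.84 and no longer the lowest, with major latex proteins at -3.81. Homologues of AT5G05340 were at 754 RPKM in root on scaffold00009 and 549 on scaffold01352, and PA2 (AT5G06720, scaffold01124) at 279.5 RPKM, all at 0 in leaf. The 2 genes higher in leaf were a homologue of AT5G06730 on scaffold01124, with 298 RPKM in root and 620.3 in leaf, and the homologue of AT2G24800, with 1.42 and 12.3. Of 11 major latex proteins 9 were higher in root, 6 of them MLP34 copies on scaffold00164 with root values from 16.3 to 10282 RPKM. Those higher in leaf were MLP423 on scaffold02653 (1.71 and 172 RPKM) and MLP43 (AT1G70890) on scaffold02601 (0 and 11.5 RPKM).

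Of 12 nitrate transport genes 7 were higher in root and 3 in leaf (median -2.44). With no filter on low values the median was -0.15, with the 15 members below the filter included, of which 7 had the greater value in leaf and 8 in root. NRT1.1 (AT1G12110), the nitrate sensor and transporter, had a copy on scaffold02951 at 235 RPKM in root and 0 in leaf, at least 247-fold higher, and a copy on scaffold03080 at 31.5 and 34.6 RPKM. The high-affinity transporter NRT2.4 (AT5G60770) was at 48.6 and 0 RPKM. NRT1.5 (AT1G32450), which loads nitrate into the xylem, was higher in root in each of the 3 copies compared, with 50.6 and 2.24 RPKM on scaffold03080, 47.9 and 2.83 RPKM on scaffold02229, and 25.8 and 0 RPKM on scaffold02995. The efflux carrier NAXT1 (AT3G45650) was at 10.9 and 0 RPKM, and the vacuolar anion channel CLC-C (AT5G49890) at 47.7 and 18.6 RPKM; the latter was not higher in root relative to the median gene.

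Other nitrate carriers were on the leaf side. The homologue of AT2G26690, NRT1.4 of Arabidopsis, which stores nitrate in the petiole, was at 1.03 RPKM in root and 55.0 RPKM in leaf, 53.4-fold higher (26.7 to 125). The homologue of AT3G21670 was at 2.60 and 34.4 RPKM, and that of AT1G52190 at 11.1 and 26.2 RPKM. NTL1 (AT1G69850) was at 7.44 and 7.69 RPKM, with a counting interval that included 1.

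The enzymes of the reduction steps were present in both organs. Nitrate reductase NR2 (AT1G37130) was at 82.8 RPKM in root and 179.9 RPKM in leaf, 2.17-fold higher in leaf (2.01 to 2.35). Nitrite reductase NIR1 (AT2G15620) was at 150.5 and 179 RPKM. UPM1 (AT5G40850), which makes the sirohaem of nitrite reductase, was at 10.2 and 29.8 RPKM. The molybdenum cofactor genes, whose product nitrate reductase needs, were higher in root: CNX2 (AT2G31955) was at 19.6 and 1.76 RPKM, SIR4 (AT5G20990) at 25.1 and 2.93, CNX3 (AT1G01290) at 11.7 and 1.96, and SIR1 (AT5G55130) at 21.8 and 8.38. The last was not past the threshold relative to the median gene. Neither the homologue of AT2G43760 (37.0 and 18.8 RPKM) nor SIR5 (AT4G10100; 46.7 and 74.8 RPKM) was called.

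**Figure D3:**
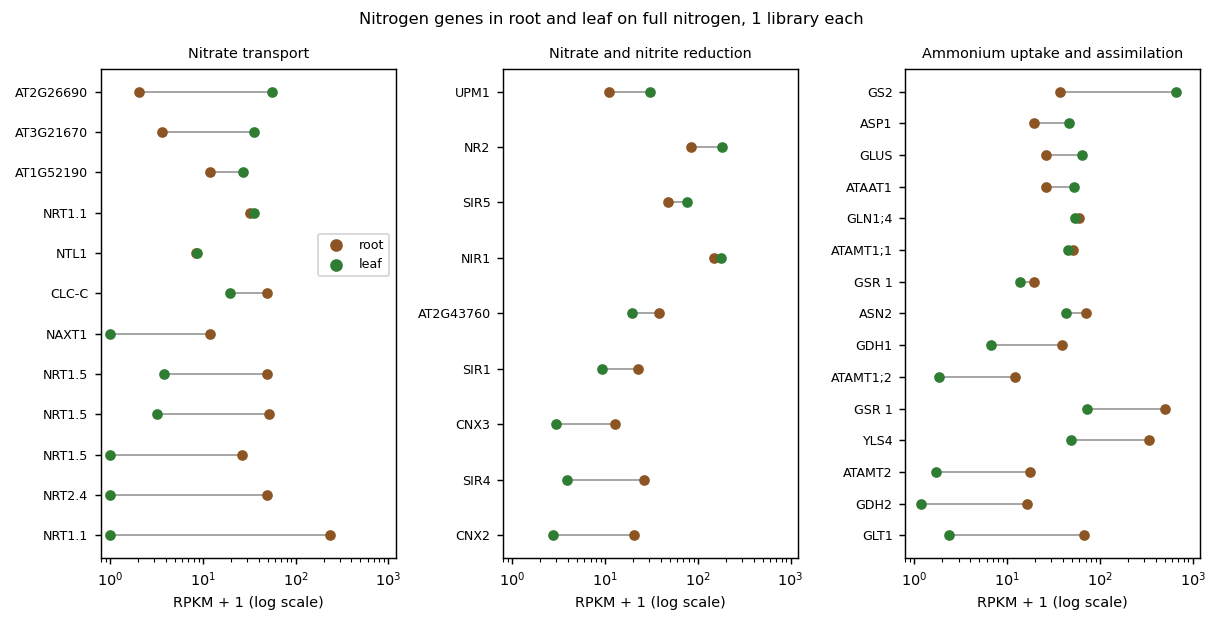
RPKM + 1 on a log scale (horizontal axes) of the genes compared for nitrate transport, reduction, and ammonium uptake and assimilation, in root (brown) and leaf (green) on full nitrogen, 1 library each, ordered by ratio within each panel. Nitrate reductase NR2 and nitrite reductase NIR1 differ by 2.17- and 1.19-fold between the organs, while NRT1.1 on scaffold02951, GS2 and GLT1 lie far apart.

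The most abundant glutamine synthetase transcript differed between the organs, and both organs held transcripts of the plastid and cytosolic forms. The plastid glutamine synthetase GS2 (AT5G35630) was at 35.9 RPKM in root and 655 RPKM in leaf, 18.3-fold higher in leaf (16.0 to 21.0). The cytosolic enzyme GSR 1 (AT5G37600) on scaffold03746 was at 502 and 72.1 RPKM, 6.97-fold higher in root (6.27 to 7.77). For glutamate synthase the organ with the higher level differed by electron donor. The ferredoxin form GLUS (AT5G04140) was at 25.4 RPKM in root and 62.5 RPKM in leaf, and the NADH form GLT1 (AT5G53460) at 66.8 and 1.38 RPKM, 48.4-fold higher in root (29.6 to 84.6). Copies that passed no threshold were GSR 1 on scaffold00444 (18.6 and 12.8 RPKM) and GLN1;4 (AT5G16570; 58.8 and 52.3 RPKM).

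Around this cycle, the glutamate dehydrogenases GDH1 (AT5G18170; 38.1 and 5.79 RPKM) and GDH2 (AT5G07440; 15.3 and 0.19 RPKM), which release ammonium, were higher in root. Ammonium transporters were higher in root for ATAMT2 (AT2G38290; 16.6 and 0.73 RPKM) and ATAMT1;2 (AT1G64780; 11.1 and 0.85 RPKM), while ATAMT1;1 (AT4G13510) was at 50.8 and 44.3 RPKM. Below the filter, another ATAMT1;2 copy, on scaffold01227, was at 0 RPKM in root and 6.88 RPKM in leaf. Further copies of ATAMT2 and ATAMT1;1 there were at 0.18 and 0 and at 2.51 and 0 RPKM. Aspartate aminotransferases took both sides. YLS4 (AT5G11520) was at 338 RPKM in root and 47.6 in leaf, ASP1 (AT2G30970) at 18.5 and 46.0, and ATAAT1 (AT4G31990), the plastid form, at 25.3 and 52.0. Asparagine synthetase ASN2 (AT5G65010) was at 69.1 and 42.3 RPKM. With 4 of 15 genes higher in leaf and 7 in root, the median, -0.69, was close to that of all genes.

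Root plastids reduce nitrite with electrons from sugar. In the list of that supply 8 of 9 genes were higher in root and none in leaf, or 4 relative to the median gene. The root ferredoxin FD3 (AT2G27510) was at 439 RPKM in root and 30.5 in leaf on scaffold01365, and at 44.1 and 6.30 RPKM on scaffold03611. Its reductase RFNR1 (AT4G05390) was at 98.5 and 9.74 RPKM. The leaf counterparts were the ferredoxin FD1 (AT1G10960), at 7.98 RPKM in root and 5149.8 in leaf, and the reductase FNR1 (AT5G66190), at 13.4 and 1300.4 RPKM.

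Of 8 phosphate transport genes 5 were higher in root and 3 in leaf. PHO1 (AT3G23430), which loads phosphate into the xylem, was at 104 RPKM in root and 1.00 RPKM in leaf, and the plasma membrane carrier PHT3 (AT5G43360) at 22.6 and 0.40 RPKM. The plastid carriers PHT4;1 (AT2G29650; 0.49 and 92.1 RPKM) and PHT2;1 (AT3G26570; 3.61 and 41.5 RPKM) were higher in leaf, as was the plasma membrane carrier PHT1;4 (AT2G38940; 6.26 and 42.0 RPKM). For sulfate transport 5 genes were compared, with 1 higher in root and 1 in leaf (median -0.12, above that of all genes). The gene higher in root was SULTR3;5 (AT5G19600), at 51.4 and 1.71 RPKM. In the low nitrogen libraries 2 genes of that list were higher in leaf and 0 in root. In sulfate reduction 3 of 9 genes were higher in each organ: an APS1 copy (AT3G22890, scaffold03918), ATP sulfurylase, was at 136 and 1.55 RPKM, and OASB (AT2G43750), the plastid cysteine synthase, at 57.1 and 565 RPKM. APS1 is also the symbol of the starch gene above, which has another homologue ID.

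Metal acquisition was a root group in 18 of 27 genes (median -2.61). The iron transporter IRT1 (AT4G19690) was at 175 RPKM in root and 14.7 RPKM in leaf, the ferric reductase FRO2 (AT1G01580) at 22.8 and 0.16, and their regulator FRU (AT2G28160) at 14.1 and 0. COPT2 (AT3G46900, scaffold01100), a copper transporter, was at 178 and 2.98 RPKM. Of the 6 genes higher in leaf, 2 were COPT1 copies (AT5G59030) on the same scaffold, at 3.25 and 54.8 RPKM and at 1.20 and 46.9 RPKM. FRO7 (AT5G49740), the chloroplast ferric reductase, was at 0.32 and 14.2 RPKM, and the iron store FER2 (AT3G11050) at 28.5 and 155 RPKM.

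For potassium and sodium, 7 of 14 genes were higher in root (6 relative to the median gene) and none in leaf. The root share was near the 41.8% of all genes. The list median was -1.23, or -0.53 with no filter on low values, where that of all genes was -0.51. The proton pump PMA2 (AT4G30190, scaffold00817), which energises uptake, was at 255 RPKM in root and 0.69 RPKM in leaf, 369-fold higher (179.8 to 923). A second copy, on scaffold00894, was at 158 and 89.8 RPKM. The outward potassium channel SKOR (AT3G02850) was at 38.5 and 5.90 RPKM, whereas the uptake channel KT1 (AT2G26650) was at 8.73 and 7.96 RPKM.

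Aquaporins, the water channels, were abundant in root: their summed RPKM was 10762 there and 4299 in leaf, with 12 of 20 genes higher in root (10 relative to the median gene) and 4 in leaf. PIP2F (AT5G60660, scaffold03904) alone had 4354 RPKM in root and 911 RPKM in leaf, and TIP2;2 (AT4G17340) had 1266 and 37.4. TIP1;1 (AT2G36830) was at 2466 and 2205 RPKM on scaffold01001 and at 4.91 and 154 RPKM on scaffold02977. PIP2A (AT3G53420) had 3 copies on scaffold01001 that were at 293 and 23.4, at 22.2 and 4.01 and at 1.03 and 39.0 RPKM. The boron channel NLM8 (AT4G10380) had a pair of copies on scaffold01335, at 73.6 and 4.49 RPKM and at 0 and 19.0 RPKM.

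Synthesis of cytokinin, a root-to-shoot signal, had 6 genes compared together with strigolactone, 3 of them higher in root, a share near that of all genes. ABCG14 (AT1G31770), which carries cytokinin to the xylem, was at 103 RPKM in root and 5.00 RPKM in leaf, and IPT5 (AT5G19040, scaffold02244) at 17.7 and 0 RPKM. The homologue of AT3G03990, the strigolactone receptor D14 of Arabidopsis, was at 14.1 and 37.6 RPKM.

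Genes often used as constant references were not constant here. Of 15 such genes 10 were higher in root and 1 in leaf (median -1.41), or 7 and 1 relative to the median gene. ACT7 (AT5G09810), an actin, was at 234 RPKM in root and 11.1 in leaf on scaffold02219, at 185 and 25.1 RPKM on scaffold03443, and at 269 and 198 RPKM on scaffold00927. GAPC1 (AT3G04120), a cytosolic glyceraldehyde phosphate dehydrogenase, had copies on scaffold04062 at 957 and 366 RPKM and at 20.1 and 230.2 RPKM. UBC21 (AT5G25760; 45.5 and 51.7 RPKM) and YLS8 (AT5G08290; 128 and 103 RPKM) were not called.

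Some gene families were picked by symbol after their values were seen. Their counts are to be read against the 18.8% of all genes higher in leaf and 41.8% higher in root. Of 32 WRKY genes 24 were higher in root and 2 in leaf, or 15 and 3 relative to the median gene. WRKY65 (AT1G29280) was at 149 RPKM in root and 0 in leaf, and WRKY71 (AT1G29860) at 2.2 and 9.49 RPKM. Among 22 MYB genes 14 were higher in root and 4 in leaf, MYB48 (AT3G46130) being at 587 and 22.2 RPKM. Other transcription factor families stood nearer to the share of all genes. For NAC 7 of 13 genes were higher in root and 1 in leaf, or 4 and 1 relative to the median gene. For LBD 8 of 15 were higher in root and 4 in leaf, or 7 and 5. Of 51 cytochrome P450 genes, which encode oxidases, 20 were higher in leaf and 21 in root. Relative to the median gene these counts were 24 and 19. Their root share was near the 41.8% of all genes, and their leaf share was above the 18.8% of all genes. CYP89A5 (AT1G64950) was at 315 and 0 RPKM on scaffold00245, and at 5.88 and 7.9 and at 1.53 and 23.1 RPKM in copies on scaffold03076, while CYP87A2 (AT1G12740, scaffold00923) was at 0.13 and 822 RPKM.

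Copies called in opposite organs were counted over the whole table. Among the genes compared, 1232 homologue IDs had 2 or more cucumber genes. In 185 of these (15.02%) at least 1 copy was higher in leaf and another higher in root. With 18.8% of all genes higher in leaf and 41.8% in root, unrelated genes would form such pairs too, and whether copies do so more or less often was not tested. In 260 every copy was higher in root and in 68 every copy was higher in leaf. The opposite copies lay on 1 scaffold for 43 of the 185. Relative to the median gene the number was 212. For 126 of the 185, the most leaf-biased and the most root-biased copies were called the same way in the low nitrogen libraries.

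**Figure D4:**
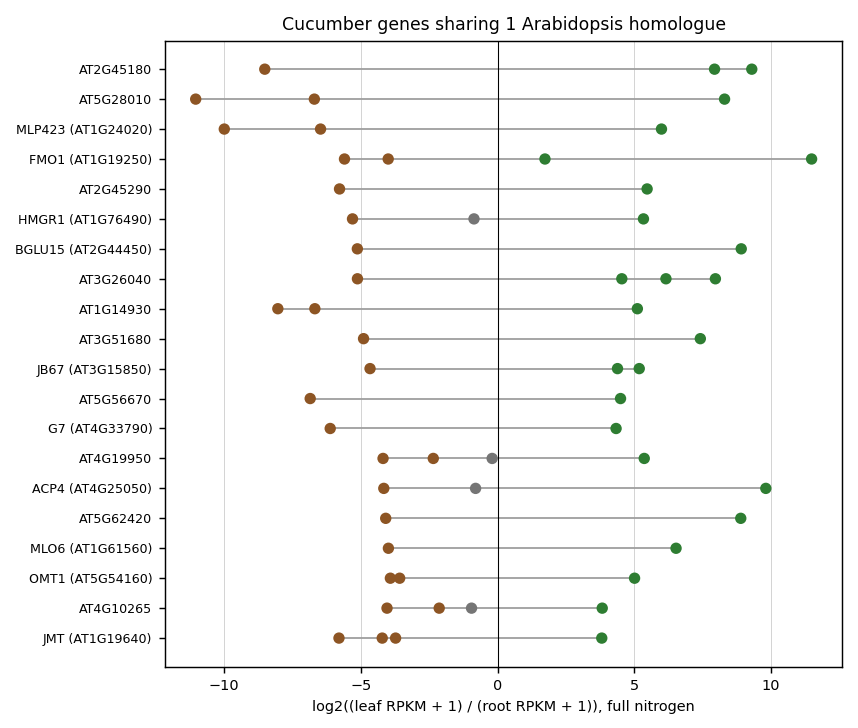
Log2 ratio of leaf over root on full nitrogen (horizontal axis) of the cucumber genes that share an Arabidopsis homologue, for the 20 homologues whose copies differ most in both directions; green points are higher in leaf, brown points higher in root, grey points in neither class. Each line spans the copies of 1 homologue, up to the 4 copies of FMO1 from -5.60 to 11.49.

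Genes of metabolism and defence were among the splits, which were not counted by function. FMO1 had 4 copies: besides the leaf gene on scaffold00485, a gene on scaffold00998 was at 184 RPKM in root and 2.80 in leaf, another on that scaffold at 3.50 and 14.0, and a gene on scaffold00602 at 15.03 and 0. HMGR1 (AT1G76490), the committed step of sterol and triterpene synthesis in the cytosol, was at 51.3 and 0.32 RPKM on scaffold00998, at 2.80 and 153 RPKM on scaffold00926 and at 67.0 and 36.4 RPKM on scaffold00055. Neighbouring BGLU15 copies (AT2G44450, scaffold01079), beta-glucosidases, were a root gene with 34.0 RPKM, listed at 0 in leaf, and a leaf gene with 481 RPKM, listed at 0 in root.

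Homologues of AT2G45180, small proteins of the lipid transfer type, included a pair on scaffold03080 at 366 and 0 RPKM and at 15.5 and 4053 RPKM. ACP4 was at 0.48 and 1331 RPKM on scaffold01141, at 1684 and 963 RPKM on scaffold03611 and at 37.9 and 1.17 RPKM on scaffold01037. RD19A (AT4G39090), a drought-responsive cysteine protease, was at 1522 and 92.3 RPKM on scaffold00934 and at 35.5 and 498 RPKM on scaffold01144. MLO6 (AT1G61560), of the family that governs powdery mildew entry in Arabidopsis, was at 46.0 and 1.95 RPKM on scaffold01443 and at 0.71 and 157 RPKM on scaffold02978. Jasmonate methyltransferase JMT (AT1G19640) had 3 copies higher in root, listed at 0 in leaf, and a copy on scaffold02003 at 0.69 and 22.7 RPKM. Ribosomal homologues were split as well: AT5G56670, a small subunit protein, had a gene on scaffold00995 at 2394 and 19.7 RPKM and a gene on scaffold02698 at 16.6 and 397 RPKM.

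The low nitrogen libraries, which share no library with the controls, gave a second reading of the organ ratio for the same genes. In them 20.2% of the 10338 genes were higher in leaf and 32.1% higher in root, and the median log2 ratio was -0.34. Of the 1948 leaf calls 1684 (86.4%) were made again, and of the 4321 root calls 3008 (69.6%). Relative to each pair's own median these shares were 77.9% and 77.7%. The extremes lay on the same side: LHCB1.4 (scaffold00542) was at 6.53 RPKM in low nitrogen root and 11056 in low nitrogen leaf, MLP34 (scaffold00164) at 8111 and 0 RPKM, and GolS2 at 9.89 and 2605 RPKM. Thylakoid list medians were lower on low nitrogen, with 7.42 for the antenna list and 5.87 for photosystem II, and all genes compared in them were again higher in leaf.

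**Figure D5:**
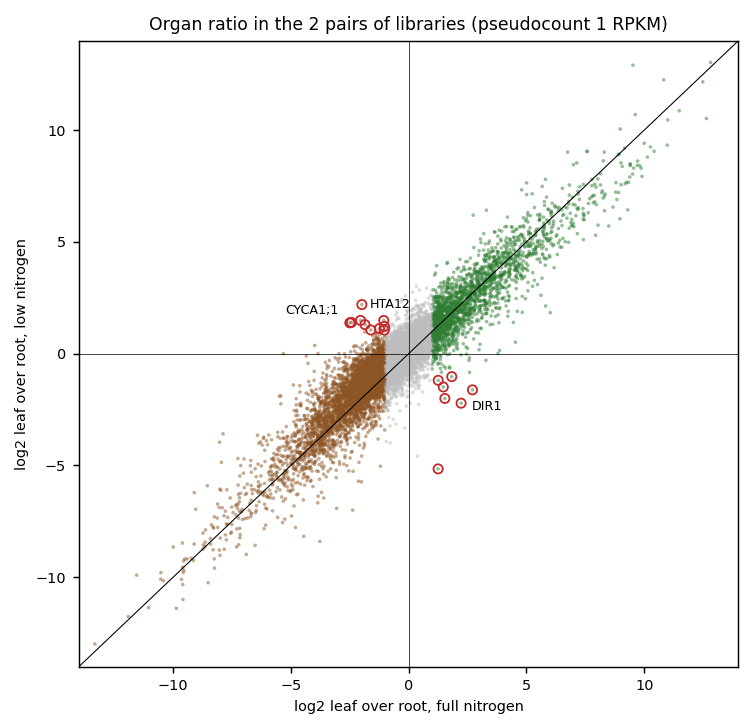
Log2 ratio of leaf over root on full nitrogen (horizontal axis) and on low nitrogen (vertical axis) for the 10338 genes, coloured by the full nitrogen call, with equal ratios on the diagonal. Red rings mark the 17 genes called higher in opposite organs on the 2 solutions, among them CYCA1;1 and HTA12 (higher in root on full and in leaf on low nitrogen) and DIR1 (the reverse).

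Among the nitrogen genes, some levels differed between the solutions. NR2 was at 79.4 RPKM in low nitrogen root and 425 RPKM in low nitrogen leaf, and NIR1 at 43.9 and 102 RPKM, so that nitrite reductase was called higher in leaf there and not on full nitrogen. NRT1.1 on scaffold02951 was at 11.03 and 0 RPKM. GS2 (28.6 and 753 RPKM), GLT1 (53.1 and 1.02 RPKM) and GSR 1 on scaffold03746 (613 and 92.0 RPKM) kept their side.

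Only 17 genes were called in opposite organs by the 2 pairs, 10 of them higher in root on full nitrogen. Cell division genes were among those 10. Cyclin CYCA1;1 (AT1G44110), of DNA replication and mitosis, was at 13.03 RPKM in root and 1.48 RPKM in leaf on full nitrogen, and at 10.9 and 30.0 RPKM on low nitrogen. The histone HTA12 (AT5G02560) on scaffold03837 was at 90.9 and 21.2 RPKM, then at 54.1 and 153 RPKM, while a copy on scaffold00696 was at 22.8 and 83.6 RPKM on full nitrogen. CYCD3;1 (AT4G34160, scaffold02135), a cyclin that starts the cell cycle, was at 14.0 and 3.13 RPKM, then at 10.4 and 27.1 RPKM. In the cell cycle list 6 of 8 genes were higher in root on full nitrogen (median -2.02), against 3 on low nitrogen (median -0.07), where 2 were higher in leaf. For CYCA1;1, HTA12 and CYCD3;1 (scaffold02135) the leaf value differed more between the solutions than the root value. Leaf age and position at sampling are not given in the labels.

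Among the 7 genes higher in leaf on full and in root on low nitrogen, DIR1 (AT5G48485, scaffold03967), a lipid transfer protein of systemic resistance, was at 13.7 RPKM in root and 67.8 RPKM in leaf, then at 123 and 25.7 RPKM. The phosphatase PAP23 (AT4G13700) was at 4.36 and 18.0 RPKM, then at 3.51 and 1.21 RPKM. Whether these differences exceed the spread between plants was not tested, since each group has 1 library.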

How the data were processed

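RNA-seq of cucumber root and leaf gave 1 library per organ and solution. The authors deposited 1 table of RPKM values per gene with lengths, scaffolds, symbols and Arabidopsis homologue IDs. The submitters' processing notes list Bowtie 0.12.9. Build, counting and treatment of reads that match several genes: not given in the sources used here. Per the labels' protocols, libraries came from total RNA and an Illumina kit.

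Ratios were log2 of leaf RPKM + 1 over root RPKM + 1 (pseudocount 1, which understates low genes), for genes whose deposited values averaged 5 RPKM or more, and called at 1 or more (Python 3.11.15, pandas 2.3.3, scipy 1.17.1). They were tested on simulated data. Depth came from the steps between low values: at the depths found, 28.0% to 35.1% of the low values examined gave whole reads, against 5.23% to 5.43% by chance. For 83.0% of genes the smallest whole reads allowed by a length from 100 bases up to that deposited (tolerance 0.00501 RPKM) gave exact 95% Clopper-Pearson intervals of the ratio; a single gene's reads are not certain. The floor for a value of 0 was 3 reads. Intervals and floors cover counting error only.

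The 40 gene lists held 808 homologue IDs, 568 of them in the table; 526 of their 871 genes passed the filter, and the others were not compared. Genes were named by rule: the 15 highest and lowest ratios with a symbol, 5 each without, up to 4 members per list with the largest ratio and members called against their list, all nitrogen members, and the 5 most abundant genes per organ. Others were named after their values were seen. Members and lists were chosen with earlier results of these data known. No gene ID matched the reference table, and no sequences or coordinates are given. A gene of the root tip list is not reported here.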

Additional observations from a re-analysis of the deposited data

Results flagged for a closer look

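The organ difference had opposite directions on full and on low nitrogen for 17 genes, each past the threshold on both solutions. These differences were not tested. Of the 10 genes higher in root on full nitrogen, CYCA1;1, CYCD3;1 (scaffold02135) and the H2A histones HTA12 (scaffold03837) and HTA7 belong to cell division and chromatin. Their log2 ratios of leaf over root were -2.50, -1.86, -2.05 and -1.03 on full nitrogen, and 1.38, 1.3, 1.49 and 1.22 on low nitrogen. FLA8, an arabinogalactan protein, had ratios of -1.61 and 1.06. PDLP6, a plasmodesmata protein, had -1.06 and 1.48, with a counting interval on full nitrogen that included 1. The homologues of AT5G43150, AT5G06420, AT4G28310 and AT5G48540 had full nitrogen ratios of -2.43, -1.99, -1.24 and -1.04, and the interval of the homologue of AT5G06420 included 1. Of the 7 genes higher in leaf on full nitrogen, DIR1 had a ratio of 2.23 there and -2.22 on low nitrogen, and PAP23 had 1.83 and -1.03. The homologues of AT3G62550, AT1G67330 and AT5G19150 had full nitrogen ratios of 1.54, 1.47 and 1.25. Genes with no homologue had 2.71 (scaffold01028) and 1.25 (scaffold00464), the latter with an interval that included 1.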

How the results depend on the processing

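Counts of genes higher in leaf and in root (1948 and 4321) moved by more than 1.5 times at a mean of at least 20 RPKM (1074 and 2092, of 4918 genes tested) and when calls needed a log2 ratio of 2 (1183 and 2195). Scaled by the median ratio, 2691 and 2932 genes were called, a leaf share of 47.9% against 31.1%. That share was 39.6% with equal upper quartiles and 35.6% with equal sums without the 20 most abundant genes. Relative to the median of all genes, chosen after seeing the data, 2748 genes were higher in root, and 11 lists had a median of -1 or less, against 17. Of 390 list medians recomputed for 39 lists under 10 alternatives, 252 moved by less than 1.5 times on the linear scale, 136 by more, and 2 that had been past 1 changed sign: raffinose family sugars from 2.72 to -0.059 with no filter, and phosphate transport from -1.77 to 2.57 at a mean of at least 20 RPKM, where fewer genes remain. Medians within 1 of 0 also changed sign: sugar carriers and sulfate transport across scalings, sulfate reduction across scalings and filters, sucrose synthesis at a mean of at least 1 RPKM and with no filter, and leaf polarity and nitrate and nitrite reduction at a mean of at least 20 RPKM. No paired analysis was possible because each group has 1 library and the labels carry no replicate numbers, and no replicate could be left out. The leaf depth of 2.93 M reads limits genes of few reads: of 1646 leaf and 3561 root calls with recovered reads, the counting interval excluded 1 for 1635 and 3544.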
